A study of Xenopus tropicalis with 24 samples.

Results

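The tails of wild-type *Xenopus tropicalis* tadpoles at stage 61 (WT61) were compared between 24 h and 0 h post amputation (hpa). The comparison holds the 2 WT61 libraries labelled 1 day after cutting and the 2 WT61 libraries labelled 0 hour, which are 4 of the 24 libraries of the series. Both arms were wild type and both were cut, under anaesthesia with MS222 by the methods of the study. No hormone treatment is described for them. The tissue was the tip of the stump, made up of whatever had formed beyond the cut plus a short stretch of old tail behind it. There was no uncut tail a day later, so the effects of the cut and of 1 day of metamorphosis cannot be told apart. For the changes described here, 2 other groups serve as reference: the wild type at premetamorphic stage 56 (WT56) and stage-61 tadpoles that lack both thyroid hormone receptors, TRα and TRβ (TRDKO61). In the background that the study gives, WT61 tails do not regenerate, while those of WT56 and TRDKO61 do. The RNA of each condition came from several tadpoles, and the methods describe the replicates as prepared from each RNA sample, so the p-values measure the spread between libraries, which may be technical.

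Thyroid hormone enters cells and binds its receptors, which sit on DNA and turn from repressors into activators of their target genes. At metamorphic climax the hormone peaks and the tail, which holds a notochord, a spinal cord and segmented muscle under a fin and skin, starts to be digested by matrix metalloproteinases and lysosomal enzymes. A cut tail of a younger tadpole instead covers the wound with epidermis, draws in leukocytes, forms a bud of dividing progenitor cells called a blastema, and grows back.

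The 4 libraries held 10795536 and 16645297 counts at 0 hpa and 15766051 and 9837250 counts at 24 hpa, within a range of 3956148 to 20731438 over the series. The biological coefficient of variation between the 2 libraries was 11.6% at 0 hpa and 12.8% at 24 hpa. Levels are given as CPM, counts scaled to a common library size with TMM factors, for replicates 1 and 2 in that order. The label tail fitted the content of the libraries. Transcripts of muscle contraction summed to 35480 and 32800 CPM at 0 hpa, epidermal adhesion genes to 13200 and 12070 CPM, notochord and cartilage genes to 1131 and 1430 CPM, and neural genes to 1136 CPM in both. The thyroid hormone receptor gene *thrb*, itself induced by the hormone, was present with 218 and 212 CPM at 0 hpa and 159 and 119.9 CPM at 24 hpa.

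Of 15992 genes tested, 1384 were differentially expressed (DEGs, absolute log2 fold change over 1 and FDR under 0.05), which is 8.65%. Of these, 618 (3.86%) were upregulated and 766 (4.79%) downregulated at 24 hpa. The 4 libraries did not overlap between the arms in any of the 1384. With 2 libraries per group the 2 limits all but require this, so it adds no support to the calls. The median log2 FC over all genes tested was 0.01, a value that the scaling of the libraries holds near 0. Without the limit on the fold change, 1416 genes rose and 1644 fell. When the test itself asked for more than a 2-fold change (glmTreat of edgeR), 212 and 234 were left, so calls with a log2 FC near 1 depend on how the limit was applied. Unnamed loci made up 173 of the genes upregulated and 91 of those downregulated.

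**Figure D1:**
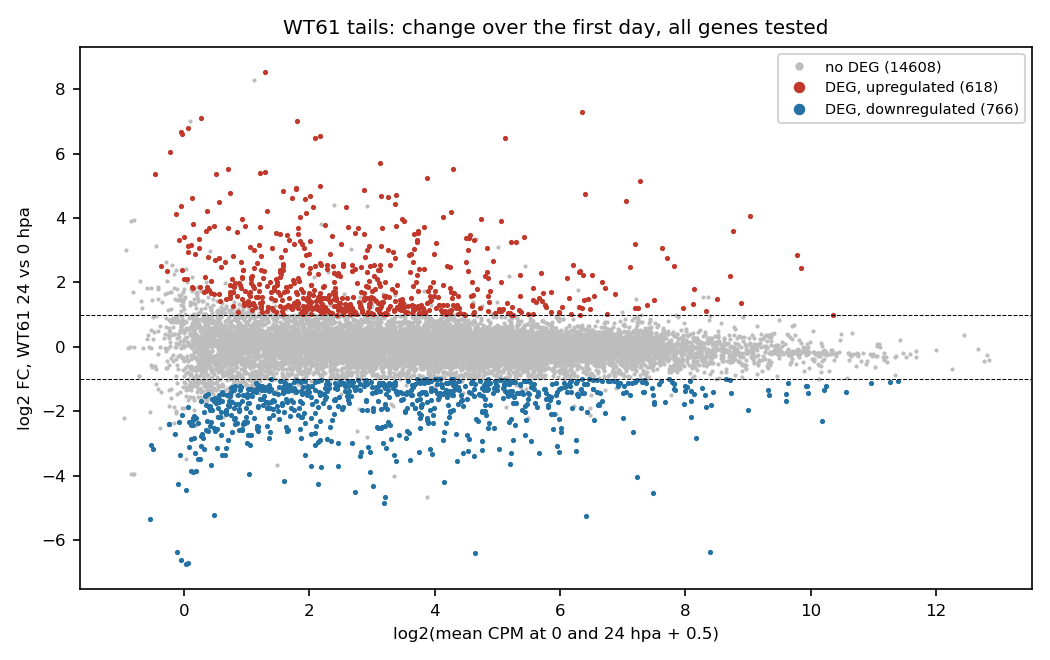
Log2 FC between 24 and 0 hpa in WT61 (vertical axis) against the mean level of each of the 15992 genes tested (horizontal axis, log2 of CPM + 0.5), with 618 upregulated DEGs in red, 766 downregulated DEGs in blue and dashed lines at log2 FC of 1 and -1. Both clouds of DEGs reach across the whole range of levels.

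The largest rise among genes with at least 10 CPM in the higher arm was that of *hpx*, which encodes hemopexin, a plasma protein that binds free heme. It had 0.579 and 1.29 CPM at 0 hpa and 179 and 143 CPM at 24 hpa (log2 FC 7.3 ± 0.49, FDR 0.000151; ± gives the SE throughout). At 6 hpa it had 3.74 and 6.84 CPM, so most of its rise came after that time. The next was *arg1*, encoding arginase, which breaks down arginine, with 0.965 and 0.587 CPM at 0 hpa and 55.8 and 79.6 CPM at 24 hpa (log2 FC 6.5 ± 0.26, FDR 4.26e-08). Its 6 hpa libraries, with 12.6 and 84 CPM, already reached the levels of 24 hpa in replicate 2 only. The complement protease gene *cfb*, whose product builds the alternative pathway convertase, went from 12.4 and 9.92 CPM to 265 and 242 CPM (log2 FC 4.51 ± 0.15, FDR 1.21e-08), the smallest FDR of the comparison. The gene *olfm4*, encoding the secreted glycoprotein olfactomedin 4, had 10.2 and 6.93 CPM at 0 hpa and 318 and 281 CPM at 24 hpa (log2 FC 5.15 ± 0.19, FDR 3.06e-08). For *vcam1*, the vascular adhesion molecule that holds leukocytes, the libraries had 0.483 and 0.822 CPM at 0 hpa and 19.2 and 15.9 CPM at 24 hpa (log2 FC 4.66 ± 0.30, FDR 1.17e-06). The costimulatory receptor gene *tnfrsf9*, with 1.16 and 0.411 CPM at 0 hpa and 17.1 and 21.1 CPM at 24 hpa, had a log2 FC of 4.73 ± 0.38. The other 6 of the 12 largest rises were *sbk1l2* (5.53), *MGC79725* (4.87), *gatd3ala* (5.25), *phyhdla.3* (4.67) and the loci LOC101732654 (5.71) and LOC108645216 (4.75). In all of these the arms were apart, as the rule of choice required. Only the call of *phyhdla.3* was unstable, being lost in 8 of 17 alternative analyses.

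The largest fall was that of *matn3*, which encodes matrilin 3, an adaptor protein of cartilage matrix. It had 42.9 and 54.4 CPM at 0 hpa and 0.738 and 0.296 CPM at 24 hpa (log2 FC -6.39 ± 0.26, FDR 4.26e-08), with 13 and 3.87 CPM at 6 hpa. *ankrd2*, which encodes a stretch-responsive ankyrin repeat protein of the muscle sarcomere, had 716 and 614 CPM at 0 hpa and 3.52 and 13.6 CPM at 24 hpa (log2 FC -6.37 ± 0.61, FDR 0.00119). Both 24 hpa libraries were far below both 0 hpa libraries although they differed from each other. A further gene of the muscle list was among the 12 largest falls. *lmod2*, whose product elongates thin filaments, went from 10 and 13.4 CPM to 0.398 and 0.691 CPM (log2 FC -4.5 ± 0.37, FDR 6.36e-06). *mss51*, which encodes a mitochondrial protein of muscle but stands in no list used here, had a log2 FC of -4.32 ± 0.30. The potassium channel gene *kcna10*, also in no list, had one of -4.83 ± 0.28. From cartilage and notochord sheath came *col9a3* (-4.21 ± 0.18) and *matn2* (-3.63 ± 0.17). The lactate and pyruvate carrier gene *slc16a7* (-4.65 ± 0.31), the potassium channel subunit gene *kcnmb2* (-3.9 ± 0.30) and MGC75582 (-5.25 ± 0.42) fell as well. The remaining pair were the immediate early genes *fos* and *klf2*, both high and unequal at 0 hpa. *fos* had 494 and 188 CPM at 0 hpa and 14 and 15.7 CPM at 24 hpa (log2 FC -4.53 ± 0.94, FDR 0.0323) and *klf2* had 419 and 143 CPM at 0 hpa and 18.9 and 14.8 CPM at 24 hpa (log2 FC -4.05 ± 0.66, FDR 0.0135). These arms do not overlap, as the rule of choice required. The call of *fos* was lost in 8 of 17 alternatives and that of *klf2* in 3. For both genes the fits without either 24 hpa library were among them.

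**Figure D2:**
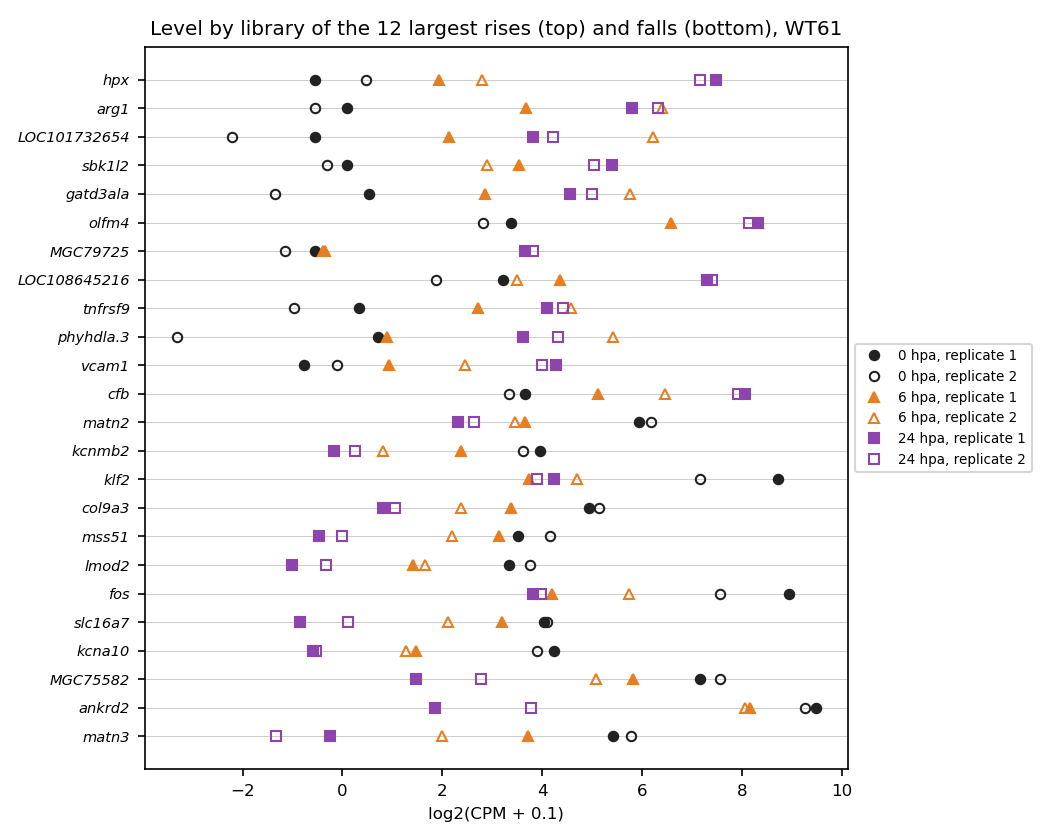
Level of the 12 genes with the largest rise (top rows) and the 12 with the largest fall (bottom rows) in each WT61 library, as log2(CPM + 0.1), at 0 hpa (circles), 6 hpa (triangles) and 24 hpa (squares), with replicate 1 filled and replicate 2 open. The genes were chosen for no overlap between the arms, so in every row both squares lie on the same side of both circles. The triangles of 6 hpa mostly lie between them.

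Cell division genes were upregulated as a group. Of 52 genes tested from a list of mitosis and G2/M genes, 39 were upregulated DEGs and none fell (3.86% and 4.79% of all genes), and their median log2 FC was 1.30. *cdk1*, the kinase that drives entry into mitosis, had 8.21 and 9.34 CPM at 0 hpa and 33.5 and 23.6 CPM at 24 hpa (log2 FC 1.7 ± 0.20, FDR 0.000154). *anln*, which encodes the contractile ring protein anillin, had 1.64 and 1.88 CPM at 0 hpa and 14.8 and 9.37 CPM at 24 hpa (log2 FC 2.78 ± 0.30, FDR 9.60e-05), and *aurkb*, a kinase of the chromosomal passenger complex, had a log2 FC of 1.88 ± 0.26. Its partners *incenp* (1.73 ± 0.20) and *cdca8* (1.44 ± 0.30) rose too, the latter without a call once replicate 1 at 24 hpa was left out. The condensin gene *smc2* went from 5.99 and 8.28 CPM to 26.4 and 21.5 CPM (log2 FC 1.72 ± 0.20, FDR 0.000127), and *plk1* had a log2 FC of 1.48 ± 0.21. The call of *plk1* was lost with glmTreat and in the fit to all 24 libraries. Calls of other members, such as *ccna2*, *aurka*, *kif23* and *ttk*, were lost in both as well. Summed over the list, the libraries had 396.5 and 420.7 CPM at 0 hpa, 344.2 and 280.3 CPM at 6 hpa and 841.6 and 647.7 CPM at 24 hpa, so the rise came after 6 hpa and was larger in replicate 1. Without that library 17 of the 52 were called and the median was 1.0. Without replicate 2 at 0 hpa 22 were called.

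The DNA replication list behaved in the same direction with fewer calls. Of 58 genes tested, 16 were upregulated DEGs and none fell (3.86% and 4.79% of all genes). Without the limit on the fold change 40 rose at an FDR under 0.05, beside 1416 of all 15992 genes. The median was 0.79, and 0.66 without replicate 1 at 24 hpa. *rrm2.2*, a subunit of the ribonucleotide reductase that makes DNA precursors, had 6.47 and 5.81 CPM at 0 hpa and 27.1 and 21.4 CPM at 24 hpa (log2 FC 2.0 ± 0.17, FDR 9.11e-06). *cdc45*, a part of the replicative helicase, went from 1.06 and 1.23 CPM to 4.43 and 4.24 CPM (log2 FC 1.89 ± 0.26, FDR 0.000291). *mcm5* of the same helicase had a log2 FC of 1.29 ± 0.15 and *cdk2*, the S phase kinase, one of 1.24 ± 0.17. The calls of *ccne2*, *gins3* and *cdc25a* were each lost in at least 5 alternatives. Among 23 CDK inhibitors and senescence markers no gene was a DEG, where 8.65% of all genes were. At an FDR under 0.05 alone 1 rose and 6 fell, beside 1416 and 1644 of all 15992 genes. *cdkn1a*, encoding the inhibitor p21, had 158 and 115 CPM at 0 hpa and 87.2 and 102 CPM at 24 hpa (log2 FC -0.54 ± 0.17, FDR 0.0467), which is below the fold limit. *cdkn2b*, which encodes an inhibitor of CDK4 and CDK6, had 8.98 and 6.22 CPM at 0 hpa and 5.85 and 5.92 CPM at 24 hpa (log2 FC -0.36 ± 0.30, FDR 0.47), and its arms did not overlap but its difference did not pass the test.

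A part of the leukocyte and inflammatory genes rose. Of 43 myeloid and pan-leukocyte markers tested, 10 were upregulated DEGs and none was a downregulated DEG (3.86% and 4.79% of all genes). At an FDR under 0.05 alone 23 rose and 1 fell, beside 1416 and 1644 of all 15992 genes. The median was 0.56. In whole tissue, a rise of this kind can be more cells of a type or more RNA per cell, and these cannot be told apart. *ncf1*, a subunit of the phagocyte NADPH oxidase, had 3.96 and 3.46 CPM at 0 hpa and 27.3 and 26.5 CPM at 24 hpa (log2 FC 2.87 ± 0.20, FDR 1.95e-06). Its partners *cybb* (1.68 ± 0.17) and *ncf4* (1.38 ± 0.23) rose as well, *ncf4* without a call once replicate 2 at 0 hpa was left out. The granulocyte genes *mmp25* (3.02 ± 0.40), a membrane-bound protease, and *cebpe* (2.51 ± 0.43), a transcription factor, rose, as did *mpo*, the myeloperoxidase gene, from 41.1 and 22.9 CPM to 138 and 160.4 CPM (log2 FC 2.23 ± 0.38, FDR 0.0103). The call of *mpo* was lost without either 24 hpa library. The summed level of the list was 1793 and 1560 CPM at 0 hpa, 2034 and 3283 CPM at 6 hpa, and 2268 and 2193 CPM at 24 hpa, so the libraries of 6 hpa were further apart than those of 24 hpa, which lay above both of 0 hpa. Among 16 lymphoid markers no gene was a DEG, where 8.65% of all genes were.

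Of 93 genes for cytokines, chemokines and their receptors, 22 were upregulated DEGs and 6 downregulated (3.86% and 4.79% of all genes). Their median log2 FC was 0.37, and 0.26 when replicate 2 at 0 hpa was left out. Among the ligands, *il11*, a cytokine of the IL-6 family, had 2 counts in all at 0 hpa and 210 at 24 hpa, a ratio of 103.7 with a counting interval of 28.3 to 862. Its level went from 0.0965 and 0.0587 CPM to 7.95 and 6.91 CPM, with 3.68 and 13 CPM at 6 hpa. *lep*, which encodes the hormone leptin, had 7.05 and 5.11 CPM at 0 hpa and 52.3 and 47.9 CPM at 24 hpa (log2 FC 3.07 ± 0.16, FDR 2.22e-07), after 35.2 and 82.8 CPM at 6 hpa. *il17c*, an epithelial cytokine, had 5 counts at 0 hpa and 91 at 24 hpa, a ratio of 18 with a counting interval of 7.42 to 56.7. Its 24 hpa libraries, with 1.76 and 5.92 CPM, were unequal, and its call was lost without replicate 2 at 0 hpa. *csf3*, the granulocyte growth factor, went from 0.193 and 0.47 CPM to 1.88 and 7.1 CPM (log2 FC 3.52 ± 0.72, FDR 0.00826), and that call ended without either 0 hpa library. Among the receptors, *il5ra* had 6.66 and 7.22 CPM at 0 hpa and 76.5 and 56.9 CPM at 24 hpa (log2 FC 3.26 ± 0.16, FDR 1.83e-07), *cxcr3* went from 1.45 and 1.47 CPM to 12.5 and 13.4 CPM (log2 FC 3.14 ± 0.28, FDR 1.02e-05), and *il6st*, the signalling chain shared by the IL-6 family, went from 53.1 and 55.3 CPM to 126 and 120.0 CPM (log2 FC 1.18 ± 0.10, FDR 9.70e-06). The falls included *il34*, a growth factor for macrophages, with 62.6 and 68.1 CPM at 0 hpa and 15.7 and 7.79 CPM at 24 hpa (log2 FC -2.44 ± 0.27, FDR 0.000307), the leptin receptor gene *lepr* (-1.45 ± 0.18) and the chemokine genes *cxcl14* (-1.44 ± 0.17) and *cxcl12* (-1.05 ± 0.15). The call of *cxcl12* was lost without replicate 2 of either arm. The feedback genes of these pathways followed in part. Of 28, 5 rose and none fell as DEGs, beside 3.86% and 4.79% of all genes. *stat3.2*, a STAT3 transcription factor, rose from 42.2 and 50.5 CPM to 166 and 161 CPM (log2 FC 1.81 ± 0.13, FDR 2.08e-06). *tnfaip2* rose as well (2.33 ± 0.16).

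Complement and acute phase genes also rose in part, in a list that also holds interferon genes. Of the 33 genes of that list tested, 10 were upregulated DEGs and 1 downregulated (3.86% and 4.79% of all genes). The genes that rose were all of complement or the acute phase. The median of the 33 was 0.45. *c3*, the central complement protein, had 3.19 and 4.76 CPM at 0 hpa and 54.1 and 69.3 CPM at 24 hpa (log2 FC 3.9 ± 0.21, FDR 4.46e-07). The classical pathway genes *c1r* (1.57 ± 0.21), *c1s* (1.64 ± 0.22) and *c4a* (2.38 ± 0.21) and the terminal pathway genes *c6.2* (3.01 ± 0.34), *c8g* (2.48 ± 0.21) and *c7* (1.19 ± 0.26) rose with it. The protease trap gene *a2m* went from 11 and 7.99 CPM to 53.4 and 39.5 CPM (log2 FC 2.32 ± 0.20, FDR 1.02e-05). The calls of *c7* were lost without replicate 1 at 0 hpa or replicate 2 at 24 hpa. The one fall, *itih4*, was called in 10 of 17 alternatives. Of 31 genes of NADPH oxidases and redox defence, 9 were upregulated DEGs and none downregulated, beside 3.86% and 4.79% of all genes. Their median was 0.81, and 0.69 to 0.77 with a WT61 library left out. The list shares members such as *ncf1*, *ncf4* and *cybb* with the leukocyte markers. Among the others were *duox2*, an epithelial oxidase, with 0.29 and 0.411 CPM at 0 hpa and 8.35 and 3.45 CPM at 24 hpa (log2 FC 4.03 ± 0.53, FDR 0.000279), *noxo1.1* (3.12 ± 0.60), *cat.3* (2.21 ± 0.13), a catalase gene, *hmox1* (2.01 ± 0.16), the heme oxygenase gene, and *gpx1* (1.2 ± 0.13). The call of *noxo1.1* was lost without either 0 hpa library.

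Matrix proteases rose in a subset. Of 44 proteases and inhibitors tested, 7 were upregulated DEGs and 2 downregulated (3.86% and 4.79% of all genes). Their median was 0.07, and -0.03 without replicate 1 at 24 hpa. *mmp13*, a collagenase gene, had 3.09 and 1.23 CPM at 0 hpa and 24.3 and 22.9 CPM at 24 hpa (log2 FC 3.55 ± 0.34, FDR 4.20e-05). The gelatinase genes *mmp9.2* and *mmp9.1* went from 24.5 and 32.6 CPM to 316 and 209.7 CPM (log2 FC 3.19 ± 0.22, FDR 9.50e-06) and from 72.1 and 36.1 CPM to 338 and 386 CPM (log2 FC 2.75 ± 0.32, FDR 0.000804). They are near copies, and reads could have been divided between them. *mmp7*, the matrilysin gene, had a log2 FC of 2.49 ± 0.28. *mmp8* had one of 3.54 ± 0.80 with a call that was lost in 7 of 17 alternatives. Other collagenase genes started high and moved less. *mmp1* had 482 and 541 CPM at 0 hpa and 902 and 944 CPM at 24 hpa (log2 FC 0.85 ± 0.17, FDR 0.00391) after 999 and 2964 CPM at 6 hpa, and *mmp14*, a membrane-bound protease, had 1277 and 1339 CPM at 0 hpa and 1653 and 1393 CPM at 24 hpa (log2 FC 0.22 ± 0.17, FDR 0.419), which did not pass the test. *mmp11*, the stromelysin 3 gene and a direct hormone target, had 322 and 334 CPM at 0 hpa and 245 and 214 CPM at 24 hpa (log2 FC -0.52 ± 0.12, FDR 0.0111), a fall below the fold limit. Of the falls, *adamts5* had 69.4 and 74.3 CPM at 0 hpa and 26.6 and 27.5 CPM at 24 hpa (log2 FC -1.41 ± 0.13, FDR 1.02e-05), and *timp3*, an inhibitor gene, was at the limit with -1.0 ± 0.15, a call lost in 10 of 17 alternatives. Among 36 lysosomal enzymes no gene was a DEG, where 8.65% of all genes were. At an FDR under 0.05 alone 2 rose and 3 fell, beside 1416 and 1644 of all 15992 genes.

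Of 15 genes of the thyroid hormone response tested, 3 were upregulated DEGs (3.86% of all genes), the proteases *mmp13*, *mmp9.2* and *mmp9.1* named above, and 1 was downregulated (4.79% of all genes). That was *thibz*, which encodes a leucine zipper protein induced by the hormone, with 184 and 140.3 CPM at 0 hpa and 75.4 and 77 CPM at 24 hpa (log2 FC -1.09 ± 0.16, FDR 0.000692), and its call was lost without replicate 1 at 0 hpa. *thrb* fell below the fold limit (log2 FC -0.63 ± 0.14, FDR 0.00793), as did *klf9*, a zinc finger target of the receptors, with 49.2 and 34.8 CPM at 0 hpa and 21.4 and 30.8 CPM at 24 hpa (log2 FC -0.69 ± 0.20, FDR 0.0284). The receptor gene *thra* had 13.9 and 13.3 CPM at 0 hpa and 10.3 and 10.7 CPM at 24 hpa (log2 FC -0.38 ± 0.16, FDR 0.129) and *dio3*, the deiodinase that inactivates the hormone, 127 and 99.1 CPM at 0 hpa and 106 and 79.5 CPM at 24 hpa (log2 FC -0.28 ± 0.22, FDR 0.445). Neither passed the test, and the arms of *dio3* overlapped.

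Of 38 genes of dermal and fibrillar matrix, 3 fell as DEGs and none rose (4.79% and 3.86% of all genes), with a median of -0.38, and 5 fell without replicate 1 at 24 hpa. They were *fbln2*, which fell from 5.7 and 7.46 CPM to 1.19 and 0.789 CPM (log2 FC -2.68 ± 0.29, FDR 6.26e-05), *fbln5* (-1.65 ± 0.17), both fibulins of elastic fibres, and *col6a3* (-1.26 ± 0.19). In the basement membrane list 1 of 36 rose as a DEG and none fell, beside 3.86% and 4.79% of all genes. At an FDR under 0.05 alone 3 rose and 10 fell, beside 1416 and 1644 of all 15992 genes. The median was -0.13, and -0.26 to -0.02 with a WT61 library left out. The 1 DEG was *frem3*, which encodes a protein that anchors epithelium to the matrix, with 4.34 and 9.81 CPM at 0 hpa and 75.7 and 65.2 CPM at 24 hpa (log2 FC 3.25 ± 0.32, FDR 0.00046). *col4a5*, a basement membrane collagen gene, had 159 and 209.6 CPM at 0 hpa and 161 and 172 CPM at 24 hpa (log2 FC -0.15 ± 0.16, FDR 0.589) with overlapping arms. Of 36 wound matrix genes and receptors, 3 rose and 6 fell, beside 3.86% and 4.79% of all genes. Their median was -0.32, and -0.42 to -0.17 with a WT61 library left out. *has2*, the hyaluronan synthase gene, had 2.41 and 2.41 CPM at 0 hpa and 16.5 and 7.0 CPM at 24 hpa (log2 FC 2.33 ± 0.42, FDR 0.00739), a call lost without replicate 2 at 0 hpa. *ecm1* went from 277 and 252 CPM to 718 and 652 CPM (log2 FC 1.37 ± 0.15, FDR 7.36e-05), and *fn1*, the fibronectin gene, from 857 and 886 CPM to 1867 and 1629 CPM at the fold limit (log2 FC 1.0 ± 0.18, FDR 0.0024), a call lost in 7 of 17 alternatives, among them those without replicate 1 at either time. *fibin*, which encodes a secreted fin bud factor, had 105 and 81.5 CPM at 0 hpa and 22.4 and 21.2 CPM at 24 hpa (log2 FC -2.1 ± 0.15, FDR 2.33e-06), and the thrombospondin gene *thbs2* had a log2 FC of -1.16 ± 0.17, not called without replicate 2 at 24 hpa.

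Among 29 keratins, 8 rose and 1 fell (3.86% and 4.79% of all genes), with a median of 0.31. *krt61* had 55.2 and 62 CPM at 0 hpa and 932 and 1044 CPM at 24 hpa (log2 FC 4.07 ± 0.27, FDR 4.44e-06), *krt78.7* went from 2.99 and 3.23 CPM to 52.4 and 46.7 CPM (log2 FC 3.98 ± 0.37, FDR 0.000315) and *krt17* went from 236 and 196 CPM to 1339 and 1768 CPM (log2 FC 2.85 ± 0.28, FDR 6.02e-05). *krt19*, which was among the most abundant, fell from 1327 and 1416 CPM to 488 and 694 CPM (log2 FC -1.22 ± 0.22, FDR 0.0019), without a call once replicate 1 at 24 hpa was left out. Keratins lie in clusters of close copies, so counts of single members are uncertain. Of 45 genes of epidermal adhesion and differentiation, 2 rose and 1 fell, beside the same shares of all genes, and their median was -0.09. The summed level of this list was 13200 and 12070 CPM at 0 hpa and 10910 and 13230 CPM at 24 hpa, which overlap.

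Most muscle transcripts fell. Of 76 genes of skeletal muscle contraction tested, 49 were downregulated DEGs and 1 upregulated (4.79% and 3.86% of all genes). The median was -1.28. The heavy chain gene *myh6* had 2028 and 1813 CPM at 0 hpa and 341 and 448 CPM at 24 hpa (log2 FC -2.29 ± 0.23, FDR 2.68e-05), the M band gene *myom2* went from 118 and 158 CPM to 12.6 and 17.2 CPM (log2 FC -3.23 ± 0.20, FDR 1.77e-06), and the Z disc gene *myot* went from 71.4 and 59.6 CPM to 6.08 and 12.4 CPM (log2 FC -2.89 ± 0.27, FDR 0.000123). *srl*, a sarcoplasmic reticulum protein gene, went from 211 and 212 CPM to 42.9 and 48.2 CPM (log2 FC -2.22 ± 0.14, FDR 1.02e-06). The exception was *tcap*, the gene of the titin cap, which rose from 13.5 and 27.3 CPM to 63.8 and 84.1 CPM (log2 FC 1.82 ± 0.28, FDR 0.00352) after 125 and 69.3 CPM at 6 hpa. The myogenic factor genes *myf6* (-3.34 ± 0.29) and *myog* (-2.32 ± 0.47) fell among 7 of 22 regulators, where 4.79% of all genes fell. The call of *myog* was lost where replicate 2 at 0 hpa or replicate 1 at 24 hpa was left out. The summed level of the contraction genes was 35480 and 32800 CPM at 0 hpa, 30970 and 22830 CPM at 6 hpa, and 12680 and 18220 CPM at 24 hpa. Replicate 1 at 24 hpa was the lower, and it was also the library with more mitotic transcripts. Without it 32 of the 76 fell, 3 rose and the median was -1.0, and 3 of the regulators were called. Some genes of other lists fell beside them. Of 30 glycolysis genes 5 fell and 1 rose, beside 4.79% and 3.86% of all genes. Their median was -0.2, and -0.28 to -0.08 with a WT61 library left out. The falls included *pfkm* (-1.68 ± 0.15) and *pgam2* (-2.25 ± 0.43). Of 57 heat shock genes 3 fell and 7 rose, beside 4.79% and 3.86% of all genes, so the falls were near the share of all genes. The 3 were *hspb7* (-1.77 ± 0.20), *hspb8* (-1.41 ± 0.22) and *hspb1* (-1.3 ± 0.21). The call of *pgam2* was lost without either 0 hpa library. *pgam2* and *hspb7* also stand in the muscle list. The part of the muscle content in these falls was not tested. Glucose transporter gene *slc2a3*, the 1 glycolysis gene that rose, went from 2.9 and 3.05 CPM to 12.6 and 13.1 CPM (log2 FC 2.1 ± 0.18, FDR 8.48e-06).

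Genes of the axial skeleton and of the nervous tissue also fell in part. Of 25 notochord and cartilage genes, 15 were downregulated DEGs and none rose (4.79% and 3.86% of all genes), with a median of -1.49. *col2a1*, the main collagen gene of the notochord sheath, had 212 and 311 CPM at 0 hpa and 99.4 and 87.7 CPM at 24 hpa (log2 FC -1.49 ± 0.18, FDR 0.000139), *col9a1* went from 95.3 and 126 CPM to 14.3 and 12 CPM (log2 FC -3.06 ± 0.20, FDR 1.77e-06) and *cnmd*, the chondromodulin gene, went from 36.1 and 37.6 CPM to 2.61 and 4.04 CPM (log2 FC -3.53 ± 0.23, FDR 1.94e-06). *shh*, the signal made by notochord and floor plate, went from 5.12 and 9.4 CPM to 2.84 and 1.88 CPM (log2 FC -1.61 ± 0.32, FDR 0.0044), and its call was lost without replicate 2 at 0 hpa. *sox9*, which drives cartilage genes, did not fall with them: it had 7.34 and 8.22 CPM at 0 hpa and 13.5 and 13.5 CPM at 24 hpa (log2 FC 0.79 ± 0.16, FDR 0.00515), a rise below the fold limit. Summed, the list went from 1131 and 1430 CPM at 0 hpa through 569.8 and 377.3 CPM at 6 hpa to 451.1 and 394.7 CPM at 24 hpa, so most of the fall lay before 6 hpa. Of 49 neural genes, 19 fell and 3 rose (4.79% and 3.86% of all genes), with a median of -0.83. The largest falls were those of genes of cholinergic neurons, *chat* (log2 FC -4.18 ± 0.41, FDR 2.49e-05), which makes acetylcholine, and *slc18a3* (log2 FC -2.96 ± 0.30, FDR 2.89e-05), which loads it into vesicles. The size of the fall of *chat* is uncertain, with a log2 FC of -7.08 to -3.95 over the alternatives. For *slc18a3* the range was -3.22 to -2.65. The choline carrier gene *slc5a7* went from 2.32 and 1.64 CPM to 0.227 and 0.0987 CPM, with 5 counts in all at 24 hpa. *syt1*, a synaptic vesicle gene, went from 16.2 and 19.6 CPM to 2.9 and 2.37 CPM (log2 FC -2.75 ± 0.22, FDR 5.63e-06) and the Schwann cell myelin gene *mpz* from 39.8 and 45 CPM to 10.2 and 6.61 CPM (log2 FC -2.31 ± 0.19, FDR 8.48e-06). The 19 falls also included *elavl4*, *ina*, *nes* and *fabp7*. The 3 that rose were *elavl3* (1.37 ± 0.27), *prph* (1.08 ± 0.20) and *tubb2b* (1.04 ± 0.15). The call of *elavl3* was lost without replicate 2 at 0 hpa.

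Immediate early genes fell in part. Of 33 tested, 7 fell and none rose (4.79% and 3.86% of all genes), with a median of -0.67. *dusp1*, a phosphatase gene induced by stress, had 610.1 and 280.4 CPM at 0 hpa and 88.8 and 110.1 CPM at 24 hpa (log2 FC -2.17 ± 0.36, FDR 0.00449) and *jund* went from 181 and 157 CPM to 79.9 and 77.2 CPM (log2 FC -1.11 ± 0.13, FDR 0.000126). The call of *jund* was lost without replicate 1 at 0 hpa and that of *dusp1* without replicate 1 at 24 hpa. The summed level was 6567 and 3938 CPM at 0 hpa against 2923 and 3032 CPM at 24 hpa, and the count was set by single libraries. It was 3 without replicate 1 at 0 hpa, 13 without replicate 2 at 0 hpa, 1 without replicate 1 at 24 hpa and 4 without replicate 2. Heat shock genes split. Of 57, 7 rose and 3 fell (3.86% and 4.79% of all genes). Those that rose were of the inducible HSP70 and HSP30 kinds plus *hsp90aa1.2* (1.72 ± 0.34). *hsp70* had 2.41 and 3.05 CPM at 0 hpa and 15.3 and 26.6 CPM at 24 hpa (log2 FC 2.89 ± 0.39, FDR 0.000917) after 30.4 and 43.6 CPM at 6 hpa, and *hspa1b* went from 0.869 and 0.705 CPM to 6.76 and 10.4 CPM (log2 FC 3.43 ± 0.47, FDR 0.000459) after 16.9 and 18.7 CPM, so both stood higher at 6 than at 24 hpa. *hsp30c*, with 4 counts at 0 hpa and 56 at 24 hpa, had a ratio of 13.8 and a counting interval of 5.11 to 52.5, and *hsp30d* one of 11.9 and 4.80 to 37.8. These are near copies of each other, and *hsp30c* was not called without replicate 2 at 0 hpa.

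Of 57 Wnt genes, 9 fell and 1 rose, where 4.79% of all genes fell and 3.86% rose. The secreted inhibitors *wif1*, with 566 and 490.5 CPM at 0 hpa and 146 and 156 CPM at 24 hpa (log2 FC -1.81 ± 0.14, FDR 3.88e-06), *dkk2* (-1.55 ± 0.16) and *dkk1* (-1.49 ± 0.24) fell, as did the ligands *wnt10b* (-1.13 ± 0.16), *wnt9b* (-1.99 ± 0.42), *wnt9a* (-1.04 ± 0.21) and *wnt16*. The gene *wnt16* had 35 counts at 0 hpa and 4 at 24 hpa, a ratio of 0.113 with a counting interval of 0.0291 to 0.316. The riser was *sfrp2*, another secreted Wnt modulator, with 33.7 and 39.3 CPM at 0 hpa and 100.5 and 109 CPM at 24 hpa (log2 FC 1.51 ± 0.12, FDR 5.40e-06). Calls were lost without replicate 1 at 0 hpa for *wnt10b* and without replicate 2 at 0 hpa for *wnt9a*. Of 33 FGF genes, 4 fell and none rose (4.79% and 3.86% of all genes), the largest of them *fgf12* (-2.04 ± 0.31). Of 57 BMP, TGF-β and activin genes, 2 rose and 4 fell, beside 3.86% and 4.79% of all genes. Their median was -0.12, and -0.21 to 0.004 with a WT61 library left out. *inhba*, the activin subunit gene, had 10.3 and 13.2 CPM at 0 hpa and 36.8 and 36 CPM at 24 hpa (log2 FC 1.61 ± 0.14, FDR 1.08e-05), while *inhbb* had a log2 FC of -1.19 ± 0.24, without a call when replicate 1 at 0 hpa was left out, and the BMP antagonist gene *chrdl1* one of -1.4 ± 0.18. In retinoic acid metabolism the synthetic enzyme gene *aldh1a3* rose from 7.82 and 6.87 CPM to 90.5 and 64.5 CPM (log2 FC 3.41 ± 0.19, FDR 4.49e-07) and the degrading enzyme gene *cyp26a1* fell from 38 and 21.7 CPM to 5.96 and 3.06 CPM (log2 FC -2.63 ± 0.46, FDR 0.0123). At 6 hpa *cyp26a1* had only 0.561 and 0.165 CPM, and its call was lost without replicate 2 at 24 hpa.

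Regulators known from blastemas and limb buds had 7 DEGs upregulated and 3 downregulated of 47 (3.86% and 4.79% of all genes). Their median was 0.17. *sall4*, a zinc finger gene of limb progenitors, had 24 and 25.9 CPM at 0 hpa and 79.3 and 58.2 CPM at 24 hpa (log2 FC 1.46 ± 0.17, FDR 0.000138). *mdk*, encoding the growth factor midkine, had a log2 FC of 1.21 ± 0.15, *sox11* one of 1.1 ± 0.18, and *sp8* and *sp9*, transcription factors of the limb ridge, ones of 1.0 ± 0.18 and 1.24 ± 0.27. The list had 4 upregulated DEGs without replicate 1 at 24 hpa, a setting in which *sox11* and *sp9* were not called, and *sp8* was not called without replicate 1 at 0 hpa or replicate 2 at 24 hpa. *tbx5*, a forelimb gene, went from 7.63 and 6.22 CPM to 1.02 and 3.06 CPM (log2 FC -1.87 ± 0.38, FDR 0.00462). None of the 30 Hox genes was a DEG, and 2 fell at an FDR under 0.05, where 1644 of all 15992 genes did. Of 45 apoptosis genes 3 rose and none fell, beside 3.86% and 4.79% of all genes, and their median was 0.07. The 3 were *ripk3.1* (2.04 ± 0.28), *mlkl* (1.09 ± 0.12) and *pycard* (1.59 ± 0.13), which act in necroptosis and the inflammasome. No caspase gene was among them. Cytosolic ribosomal proteins (78 tested) had no DEG and a median of -0.18, whose sign changed with the library left out, from -0.42 to 0.07. Genes of oxidative phosphorylation (76 tested) had 1 DEG, *cox7a1* (-1.25 ± 0.22), and 20 falls at an FDR under 0.05. The proteasome (46 tested) had 1 DEG, *psmd10* (1.01 ± 0.16), and 19 rises at that FDR. Of all 15992 genes, 8.65% were DEGs, and 1416 rose and 1644 fell at an FDR under 0.05. The call of *cox7a1* was lost without replicate 1 at 24 hpa, and that of *psmd10* without replicate 1 at 0 hpa or replicate 2 at 24 hpa.

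**Figure D3:**
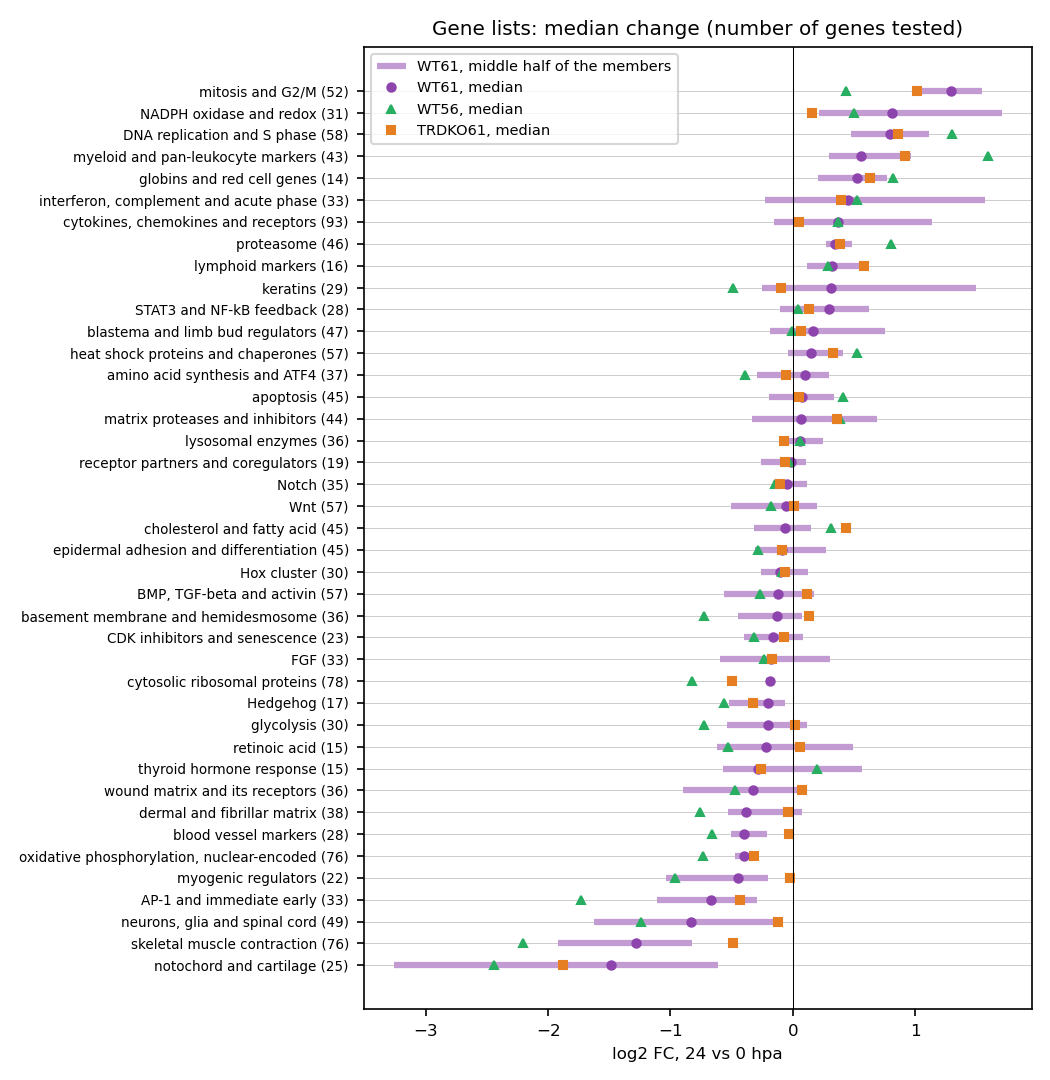
Median log2 FC between 24 and 0 hpa of each gene list with at least 10 genes tested (rows, with the number of genes) in WT61 (circles), WT56 (triangles) and TRDKO61 (squares). Bars span the lower to the upper quartile of the members in WT61. Notochord, muscle and neural genes lie lowest in WT61 and mitosis genes highest, where the WT56 median is 0.43.

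The change in WT61 was then set against that in WT56, where 2998 genes were DEGs. The difference between the 2 changes was called for 920 genes (5.75% of 15992, FDR under 0.05), with 535 higher and 385 lower in WT61. This number depended on the libraries and on the estimate of the spread. It was 139 without replicate 2 of WT56 at 0 hpa, the smallest library of the series, and 285 without replicate 2 of WT56 at 24 hpa. Leaving out replicate 1 or 2 of WT61 at 0 hpa gave 530 and 423, leaving out replicate 2 of WT61 at 24 hpa gave 601, and a fit to all 24 libraries gave 62. Of 175 genes called that are named here or stand in a list, 10 were called in all 15 alternatives. They are *mmp11*, *inhba*, *klf4*, *dnajc12*, *fn1*, *krt17*, *lcp1*, *tyrobp*, *jun* and *pfkfb4*.

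*mmp11* had the smallest p of that comparison. In WT56 it had 6.21 and 5.21 CPM at 0 hpa and 36.4 and 43.5 CPM at 24 hpa and in WT61 322 and 334 CPM at 0 hpa and 245 and 214 CPM at 24 hpa, so it rose in the one (2.73 ± 0.17) and fell slightly in the other (-0.52 ± 0.12), a difference of -3.24 ± 0.21, FDR 4.38e-05. Its WT61 level at 0 hpa was above that of WT56 at 24 hpa. *inhba* rose in both, 1.61 ± 0.14 in WT61 and 4.11 ± 0.18 in WT56 (difference -2.49 ± 0.24, FDR 0.000842). *fn1* had 1.0 ± 0.18 in WT61 and 2.46 ± 0.19 in WT56 (difference -1.46 ± 0.26, FDR 0.0111), and again both 0 hpa libraries of WT61, with 857 and 886 CPM, were above those of WT56 with 325 and 356 CPM. For *krt17* the values were 2.85 ± 0.28 and 5.95 ± 0.36 (difference -3.11 ± 0.43, FDR 0.00481). Its WT61 libraries had 235.8 and 195.7 CPM at 0 hpa and 1339 and 1768 CPM at 24 hpa. Those of WT56 were lower at both times, with 4.605 and 11.65 CPM and then 408.7 and 478.1 CPM. *klf4*, a transcription factor of barrier epithelium, fell by less in WT61, -0.93 ± 0.15 against -3.12 ± 0.16 (difference 2.19 ± 0.21, FDR 0.000842), and *dnajc12*, a co-chaperone gene, rose in WT61 and fell in WT56, 1.24 ± 0.11 against -0.70 ± 0.11 (difference 1.93 ± 0.15, FDR 0.000185). The locus LOC100495638 (-1.1) and *ttc36* (-0.94) fell by less than in WT56, with differences of 2.67 ± 0.27, FDR 0.00107 and 1.78 ± 0.19, FDR 0.0012, and each was called in 14 of 15 alternatives. At 0 hpa LOC100495638 had 44.21 and 32.12 CPM in WT61 and 1545 and 1525 CPM in WT56. *dnajc12* had 47.01 and 46.86 CPM against 284.7 and 272.9 CPM at 0 hpa. Its WT61 libraries stayed the lower at 24 hpa, with 115.1 and 106.6 CPM against 175.5 and 177.8 CPM.

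Leukocyte markers had the lower median in WT61, 0.56 against 1.6, and 16 of 43 were called lower and none higher, where 5.75% of all genes were called in either direction. *lcp1*, an actin-bundling protein of leukocytes, rose by 0.44 ± 0.13 in WT61 and 1.84 ± 0.14 in WT56 (difference -1.41 ± 0.19, FDR 0.00361), and *tyrobp*, a signalling adaptor of myeloid cells, by 0.80 ± 0.14 and 2.75 ± 0.17 (difference -1.95 ± 0.22, FDR 0.00172). Both genes were chosen after their values were seen. The summed level of these markers at 0 hpa was 1793 and 1560 CPM in WT61 and 1168 and 1072 CPM in WT56, and at 24 hpa 2268 and 2193 CPM against 2249 and 2868 CPM. The groups were thus apart at the start and overlapped after a day. Mitosis genes differed the other way, with medians of 1.30 and 0.43, and 7 of 52 called higher in WT61. *cdk1* rose by 1.7 ± 0.20 in WT61 and had 0.14 ± 0.18 in WT56 (difference 1.57 ± 0.27, FDR 0.0109). Its levels were 8.21 and 9.34 CPM at 0 hpa and 33.5 and 23.6 CPM at 24 hpa in WT61 and 60.1 and 58.2 CPM at 0 hpa and 56.4 and 77.1 CPM at 24 hpa in WT56, so the WT61 libraries at 24 hpa were still below every WT56 library. The same held for the sum of the list, which was 841.6 and 647.7 CPM in WT61 at 24 hpa and 1392 and 1291 CPM in WT56 at 0 hpa. DNA replication genes had medians of 0.79 in WT61 and 1.30 in WT56, with 8 of 58 called lower and 1 higher. Of all 15992 genes, 385 were called lower and 535 higher. Without replicate 2 of WT56 at 0 hpa, and in the fit to all 24 libraries, no gene of the mitosis or replication lists was called, and 3 and 2 of the leukocyte markers were.

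Genes of differentiated tissue had medians nearer to 0 in WT61. They were -1.28 against -2.20 in WT56 for muscle contraction, where 9 of 76 were called higher in WT61 and none lower. For notochord and cartilage they were -1.49 against -2.44, and 7 of 25 were called higher and none lower. Of all 15992 genes, 535 were called higher and 385 lower. Muscle transcripts summed to 35480 and 32800 CPM in WT61 and 50040 and 68000 CPM in WT56 at 0 hpa. At 24 hpa they overlapped, with 12680 and 18220 CPM against 16510 and 15090 CPM. Notochord and cartilage genes had 1131 and 1430 CPM against 2510 and 2659 CPM at 0 hpa. Their sums at 24 hpa were closer, 451.1 and 394.7 CPM against 551.7 and 461.5 CPM. Both lists thus started lower in WT61. In the fit to all 24 libraries no gene of these lists was called, and without replicate 2 of WT56 at 0 hpa 3 of the muscle genes and none of the notochord genes were. *col11a2* changed by -3.29 ± 0.19 in WT61 and -4.79 ± 0.18 in WT56 (difference 1.5 ± 0.27, FDR 0.0112), with 33.5 and 44.2 CPM at 0 hpa and 4.09 and 3.85 CPM at 24 hpa in WT61 and 189 and 238 CPM at 0 hpa and 7.31 and 8.41 CPM at 24 hpa in WT56. Its levels at 0 hpa were thus lower in WT61, while those at 24 hpa were closer. Immediate early genes had medians of -0.67 and -1.73, and 5 of 33 were called higher, with 2 called in each of these fits. *jun*, an AP-1 subunit gene, had -0.80 ± 0.18 in WT61 and -2.54 ± 0.19 in WT56 (difference 1.74 ± 0.25, FDR 0.00504). It started lower in WT61, with 97.98 and 86.32 CPM at 0 hpa against 258.4 and 399.2 CPM in WT56. At 24 hpa the levels were close, 54.36 and 51.8 CPM against 57.07 and 58.54 CPM. In other lists *vcam1* and *cfb* rose by more in WT61, with differences of 2.92 ± 0.52, FDR 0.0111 and 1.51 ± 0.20, FDR 0.00361, and *mmp1* by less (-1.35 ± 0.24, FDR 0.0109). *pfkfb4*, a regulator of glycolysis, had -0.20 ± 0.14 in WT61 and 1.37 ± 0.15 in WT56 (difference -1.57 ± 0.21, FDR 0.00361), with 570 and 473 CPM in WT61 at 0 hpa against 55.5 and 50.9 CPM in WT56. *jun* and *pfkfb4* were chosen after their values were seen. The call of *vcam1* held in 12 and those of *cfb* and *mmp1* in 14 of 15 alternatives.

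**Figure D4:**
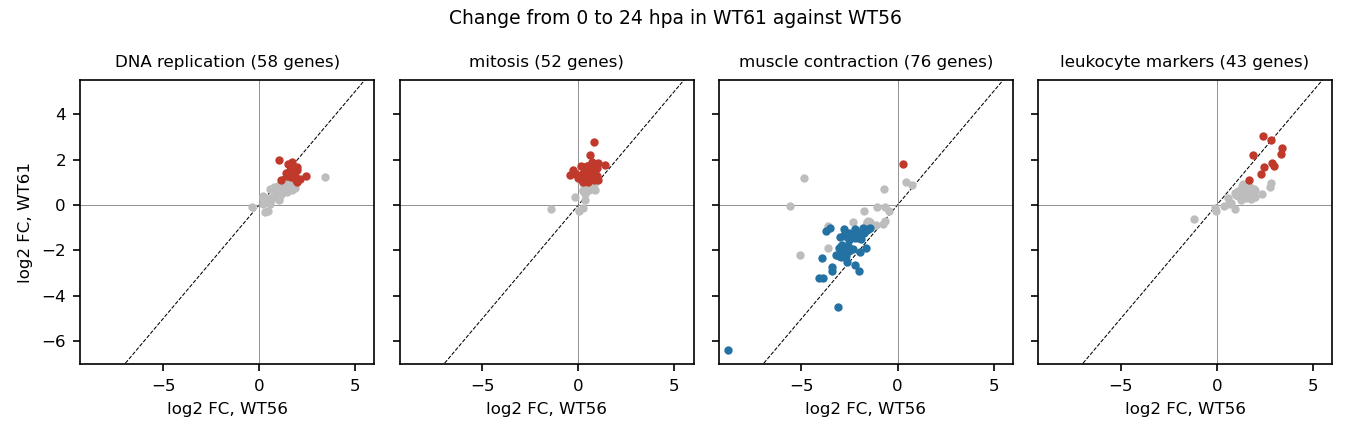
Log2 FC between 24 and 0 hpa in WT61 (vertical axes) against WT56 (horizontal axes) for the genes of 4 lists, with DEGs of WT61 in red (upregulated) or blue (downregulated), other genes in grey and the line of equal change dashed. Most mitosis genes lie above the line and most leukocyte markers below it, while most muscle genes fell by less in WT61.

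Against TRDKO61, the regenerating tail of the same stage, 6 differences in the change were called (0.0363% of 16509 genes tested), 2 higher and 4 lower in WT61. In TRDKO61 itself 845 genes were DEGs. With DESeq2 the number was 214 at an FDR under 0.05, and a small count with edgeR does not show that the groups changed alike. The count was 56 without replicate 1 of TRDKO61 at 24 hpa, and 1 to 3 when replicate 1 of a 0 hpa arm or replicate 2 of a 24 hpa arm was left out. The spread between libraries was wider in TRDKO61, with a biological coefficient of variation of 16.4% at 0 hpa and 18.5% at 24 hpa.

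Of the 6, *mmp19*, a metalloproteinase gene, was the most stable. It had 36.8 and 37.9 CPM at 0 hpa and 66.7 and 55.7 CPM at 24 hpa in WT61 and 9.01 and 7.47 CPM at 0 hpa and 86.2 and 87.5 CPM at 24 hpa in TRDKO61, a rise of 0.71 ± 0.14 against 3.39 ± 0.14 (difference -2.68 ± 0.19, FDR 0.00242), which was called in 14 of 15 alternatives. All 4 libraries of TRDKO61 lay outside the range of WT61, below it at 0 hpa and above it at 24 hpa. *lep* rose in both, by 3.07 ± 0.16 in WT61 and 5.05 ± 0.18 in TRDKO61 (difference -1.99 ± 0.24, FDR 0.0498), and ended at 52.3 and 47.9 CPM in WT61 and 97.8 and 95.9 CPM in TRDKO61. *r3hdml* rose by 1.8 ± 0.16 and 3.36 ± 0.14 (difference -1.56 ± 0.19, FDR 0.0498). *itga7*, the laminin receptor subunit of muscle, changed by -1.18 ± 0.14 in WT61 and had 0.51 ± 0.15 in TRDKO61 (difference -1.68 ± 0.21, FDR 0.0498). *krt78.7* rose in WT61 (3.98 ± 0.37) from a few CPM, while TRDKO61 had 366 and 591 CPM at 0 hpa and 755 and 506 CPM at 24 hpa, which is above every WT61 library at both times, and changed by 0.40 ± 0.26 (difference 3.58 ± 0.41, FDR 0.0498). The locus LOC101730868 rose by 1.43 ± 0.18 in WT61 and had -0.66 ± 0.16 in TRDKO61 (difference 2.08 ± 0.22, FDR 0.0452). The other 5 have an FDR just under the limit, and *lep*, *r3hdml*, *itga7* and *krt78.7* were called in 6, 5, 7 and 8 of 15 alternatives.

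Differences of like or larger size did not pass for other genes. *arg1* rose by 6.5 ± 0.26 in WT61 and 3.2 ± 0.34 in TRDKO61 (difference 3.3 ± 0.59, FDR 0.13), *olfm4* by 5.15 ± 0.19 and 1.32 ± 0.41 (difference 3.82 ± 0.59, FDR 0.117), and *cfb* by 4.51 ± 0.15 and 2.33 ± 0.27 (difference 2.18 ± 0.37, FDR 0.11). The muscle list had a median of -1.28 in WT61 and -0.49 in TRDKO61, and the leukocyte list 0.56 and 0.92, with no member called in either. Muscle transcripts in TRDKO61 summed to 20510 and 22490 CPM at 0 hpa and 8963 and 19620 CPM at 24 hpa, so its 2 libraries at 24 hpa were further apart than those of WT61. Mitosis genes had medians of 1.30 and 1.02 and sums that overlapped at 24 hpa, 841.6 and 647.7 CPM in WT61 and 653.3 and 602.7 CPM in TRDKO61. *thrb* had -0.63 ± 0.14 in WT61 and -0.16 ± 0.17 in TRDKO61, and *thibz* -1.09 ± 0.16 and -2.52 ± 0.47 from 0 hpa means of 162 and 19.9 CPM (differences -0.47 ± 0.25, FDR 0.603, and 1.42 ± 0.61, FDR 0.526).

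**Figure D5:**
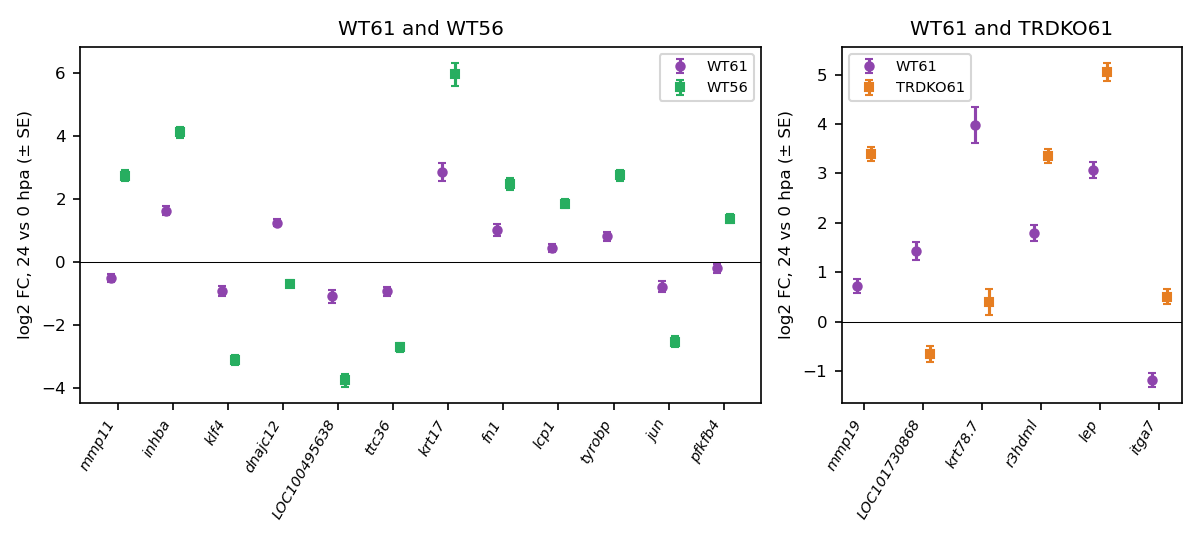
Log2 FC between 24 and 0 hpa with its SE (vertical axes) in WT61 (circles) and WT56 (squares, left) for the 10 genes called in all 15 alternatives plus LOC100495638 and *ttc36*, and in WT61 and TRDKO61 (squares, right) for the 6 genes called. *mmp11* and *dnajc12* moved in opposite directions in WT61 and WT56, and *mmp19* rose by 0.71 in WT61 and 3.39 in TRDKO61.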

How the data were processed

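Paired-end reads of poly-A-selected RNA were mapped by the authors with STAR and counted per gene with featureCounts of Subread. The submitters' processing notes give STAR 2.7.7a and Subread 2.0.1, whereas the methods of the study name earlier versions, and the strand option of the counting is not given in the sources used here. The deposited values are raw whole-number counts of reads for 26531 genes in 24 libraries, neither normalized nor filtered, and coordinates are those of UCB_Xtro_10.0. Paralogs with near-identical sequence may have shared or lost reads.

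Counts were filtered with filterByExpr and scaled with TMM in edgeR 4.0.16 (R 4.3.3). The quasi-likelihood F test, two-sided with Benjamini-Hochberg adjustment (FDR) over all genes tested, gave each FDR in the text. The WT61 change and its difference from WT56 came from 1 fit to the 8 wild-type libraries at 0 and 24 hpa, the difference from TRDKO61 from 1 fit to the 8 stage-61 libraries. The study used DESeq2, which was run here as an alternative (version 1.42.0) with the same limits, log2 FC over 1 and FDR under 0.05. The SE is the log2 FC divided by the root of F. Libraries of 6 hpa are shown as levels only. With 2 libraries per group the spread rests on few degrees of freedom and depth limits genes of few counts, for which ratios have exact 95% counting intervals that cover counting error only. The scripts were tested on simulated data.

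Named genes were the 12 largest rises and 12 largest falls among DEGs with at least 10 CPM in the higher arm and no overlap, DEGs in the gene lists, genes that the study measured singly plus hormone-response genes, and the 6 smallest p of each difference. The comparison and the lists were chosen with earlier results of these data known. A gene covered by the rule is not reported here. Alternatives were other scalings, no filter, thinned counts, other sets of libraries in the fit, each library left out, a replicate block and another fold limit. Replicate numbers do not pair the libraries: the labels tie them to no animal or batch, and deviations of same-numbered libraries correlated at -0.0926 to 0.0388 across genes. No promoter motifs were examined.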

Additional observations from a re-analysis of the deposited data

Results flagged for a closer look

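The interaction test called 920 genes whose change over the day differed between WT61 and WT56, and 6 genes whose change differed between WT61 and TRDKO61. Among those chosen by the rule for named genes, the log2 difference, WT61 minus WT56, was -3.24 for *mmp11*, -2.49 for *inhba* and -1.36 for *mmp1*, which therefore rose by less or fell in WT61. It was 2.92 for *vcam1*, 2.67 for LOC100495638, 2.19 for *klf4*, 1.93 for *dnajc12*, 1.78 for *ttc36* and 1.51 for *cfb*, which rose by more or fell by less in WT61. Of these, *mmp11*, *inhba*, *klf4* and *dnajc12* were called in all 15 alternatives.

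Against TRDKO61 the difference was -2.68 for *mmp19*, -1.99 for *lep*, -1.68 for *itga7* and -1.56 for *r3hdml*, and it was 3.58 for *krt78.7* and 2.08 for LOC101730868. *mmp19* was called in 14 of 15 alternatives and the other 5 in 5 to 11. The cause of these differences was not tested.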

How the results depend on the processing

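No named gene that was called in WT61 reversed in any alternative. List medians near 0 changed sign without single libraries, as for ribosomal proteins (-0.42 to 0.07) and epidermal adhesion genes (up to 0.04). The DEG counts, 618 upregulated and 766 downregulated, stayed within 1.5 times of these values under other scalings, no filter, DESeq2, thinned counts, other sets of libraries and a replicate block (613 and 736). Without single libraries they ranged from 473 to 630 and from 600 to 782. They moved further only with the fold limit, to 212 and 234 with glmTreat and to 1416 and 1644 with no limit. The upregulated share of DEGs ranged from 43.1% to 47.6%. DESeq2 called 1237 DEGs, of which 1192 were shared, 86.1% of the 1384. Of 328 named DEGs, 122 were called in all 17 alternatives, 61 were lost with glmTreat only, and 123 were lost without at least 1 WT61 library. The 920 differences from WT56 became 2195 without the filter on low counts, 62 with all 24 libraries in the fit and 655 with the replicate block, and ranged from 139 to 824 without single libraries. The 6 differences from TRDKO61 became 2 with RLE size factors, 120 without the filter, 214 with DESeq2, 11 with all 24 libraries and 15 with the replicate block, and ranged from 1 to 56 without single libraries. The cause was not tested. The replicate number is only a name, and the correlations of same-numbered libraries gave no pairing.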

Other observations

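Blood vessel markers (28 tested) had 1 DEG in each direction, where 3.86% of all genes rose and 4.79% fell, and a median of -0.40. Their sum was 1048 and 919.1 CPM at 0 hpa against 728.2 and 691.2 CPM at 24 hpa, so the arms were apart. The DEGs were *aplnr* (1.3 ± 0.23), the apelin receptor gene of endothelium, and its ligand gene *apln* (-1.15 ± 0.18). The call of *aplnr* was lost without replicate 1 at 24 hpa and in the fit to all 24 libraries. Of 45 genes of cholesterol and fatty acid metabolism, 2 fell and none rose, beside 4.79% and 3.86% of all genes. They were *lpl* (-1.48 ± 0.14), which releases fatty acids from lipoproteins, and *cpt1b* (-1.47 ± 0.25), the muscle carrier that brings them into mitochondria. Globin and red cell genes summed to 3176 and 1884 CPM at 0 hpa and 4530 and 3266 CPM at 24 hpa, with a wide spread in both arms.

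A run of 6 neighbouring genes of chromosome 8 was upregulated together in WT61, and it was chosen after the values were seen. The genes are *phyhdlb* (4.36 ± 0.73), *gatd3ala* (5.25 ± 0.41), *phyhdla.3* (4.67 ± 0.98), *phyhdla.2* (4.17 ± 0.50), *phyhdla.1* (3.68 ± 0.69) and *gatd3alb.1* (4.18 ± 0.29), between positions 45833943 and 45940936 of UCB_Xtro_10.0. In WT56 *gatd3ala* had a log2 FC of 4.55 ± 0.37 and *phyhdlb* one of 3.9 ± 0.78, while in TRDKO61 they had 0.72 ± 0.40 and -0.33 ± 0.51. The differences between WT61 and TRDKO61, 4.52 ± 0.69, FDR 0.0952 and 4.68 ± 0.85, FDR 0.13, did not pass. TRDKO61 started higher at 0 hpa. *gatd3ala* had 10.45 and 4.92 CPM there against 1.35 and 0.294 CPM in WT61. For *gatd3alb.1* the levels were 32.64 and 16.49 CPM against 2.51 and 1.53 CPM. At 24 hpa *gatd3alb.1* had 28.59 and 26.46 CPM in TRDKO61 and 30.39 and 40.25 CPM in WT61. Members of this run are close copies, so their counts are uncertain.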
